A study of Homo sapiens with 6 samples.

Results

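The genes described here encode the machinery by which a cell detects DNA and double-stranded RNA in its cytosol. They were 10 genes chosen by name: MB21D1 (CGAS), TMEM173 (STING1), TREX1, TBK1, IRF3, DDX58 (RIGI), IFIH1, MAVS, ADAR and EIF2AK2. Of these, 9 were matched by Ensembl identifier to rows of the count table, out of 18677 rows in all, and all 9 entered the test across genes. TREX1 was not analysed here. In GENCODE 29 (GRCh38), all 1515 exon bases of TREX1, the cytosolic DNA exonuclease gene, also lie in exons of ATRIP on the same strand, and ATRIP itself had 17, 14 and 13 counts in the SETDB1-knockout libraries and 13, 7 and 9 counts in the control libraries.

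In DNA sensing, cGAS binds cytosolic DNA and makes cyclic GMP-AMP, which activates STING at the endoplasmic reticulum. In RNA sensing, RIG-I (DDX58) and MDA5 (IFIH1) bind foreign or unedited double-stranded RNA and signal through MAVS on mitochondria. Both routes end in the kinase TBK1 and the transcription factor IRF3, which induce type I interferon, while the editing enzyme ADAR removes self double-stranded RNA from view and the kinase PKR (EIF2AK2) stops translation when it meets such RNA. SETDB1 deposits the repressive H3K9me3 mark on retroelements, and their transcripts are a known source of nucleic acid for these sensors.

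The cells were H1299, a p53-deficient line from a human non-small cell lung carcinoma. The knockout cells carried the guide RNA hSETDB1 sg1 (3 libraries), and the control cells carried the guide Control sg2 (3 libraries). Each group was made with 1 guide, both lines were grown with puromycin, and the labels do not say whether replicates were separate cultures, so p-values measure the spread between these libraries only. Levels are CPM (counts scaled to a common library size, with TMM as a correction for composition). Log2 fold changes are of SETDB1 knockout relative to control and carry a standard error (SE), and a change was called at an adjusted p under 0.05 (edgeR quasi-likelihood test, Benjamini-Hochberg adjustment over 17675 genes). These are bulk libraries, in which fewer cells with a transcript and less of it per cell cannot be told apart.

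The libraries held 29532057 to 35941288 counts, and a single count was worth 0.0282 to 0.0334 CPM. SETDB1 mRNA was 38.6 ± 2.31 CPM in SETDB1-knockout cells and 43.5 ± 1.76 CPM in control cells (SD, n = 3 each), and its log2 fold change was -0.17 ± 0.06 (SE; edgeR adjusted p = 0.0151). That call was lost without SETDB1-knockout replicate 2 (-0.13, edgeR adjusted p = 0.0896), and with library size alone (-0.13, edgeR adjusted p = 0.0605). It was also lost in a test against a fold of 1.5 (glmTreat in edgeR), which asks for a larger change. Edits made with a guide can leave mRNA levels as they are, which limits the SETDB1 level as a check of the labels. Of 6 markers looked for in carcinoma cells, 5 had rows, with a summed level of 2633 to 2755 CPM in SETDB1-knockout libraries and 3325 to 3513 CPM in control libraries, and 3 of the 4 tested were called lower. Most of the sum was VIM, at 2216 ± 58.5 CPM in SETDB1-knockout cells and 2430 ± 61.3 CPM in control cells (log2 fold change -0.13 ± 0.06, SE; edgeR adjusted p = 0.0441). The keratin gene KRT8 fell to 157.5 ± 0.703 CPM in SETDB1-knockout cells, against 367.3 ± 9.58 CPM in control cells (log2 fold change -1.22 ± 0.05, SE). KRT18, whose annotated span overlaps that of KRT8 on the other strand, fell to 332.3 ± 6.43 CPM in SETDB1-knockout cells, against 599.1 ± 30.7 CPM in control cells (log2 fold change -0.85 ± 0.06, SE). The epithelial surface marker EPCAM had 0.179 ± 0.0694 CPM in SETDB1-knockout cells and 0.254 ± 0.0765 CPM in control cells. Of 12 immune cell markers 4 had rows, with a summed level of 6.07 to 7.64 CPM in SETDB1-knockout libraries and 2.68 to 3.70 CPM in control libraries, most of it from the integrin gene ITGAM. Fibroblast markers (3 of 8 with rows) summed to 1.13 to 1.39 CPM in SETDB1-knockout libraries and 1.70 to 1.84 CPM in control libraries, and endothelial markers (2 of 6) to 1.47 to 1.94 CPM in SETDB1-knockout libraries and 3.37 to 3.84 CPM in control libraries. The part of these markers in the results below was not tested.

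The 9 genes did not move one way. IRF3, ADAR and DDX58 were higher in the SETDB1-knockout cells, TMEM173, IFIH1, MAVS, MB21D1 and TBK1 were lower, and EIF2AK2 did not pass the test. The 8 calls (3 higher and 5 lower) are to be read against a background in which 63.5% of all tested genes were called, 31.9% higher and 31.6% lower. The libraries of the groups did not overlap for 8 of the 9, against 66.8% of all genes tested. Most of the called changes were under 1.5-fold. TMEM173, IRF3 and IFIH1 passed a test against a fold of 1.5 (glmTreat in edgeR), which 3052 of all 17675 genes tested passed. The median absolute log2 fold change was 0.45 over the 9 genes and 0.33 over all genes tested, and the medians with sign were -0.20 and 0.01.

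**Figure D1:**
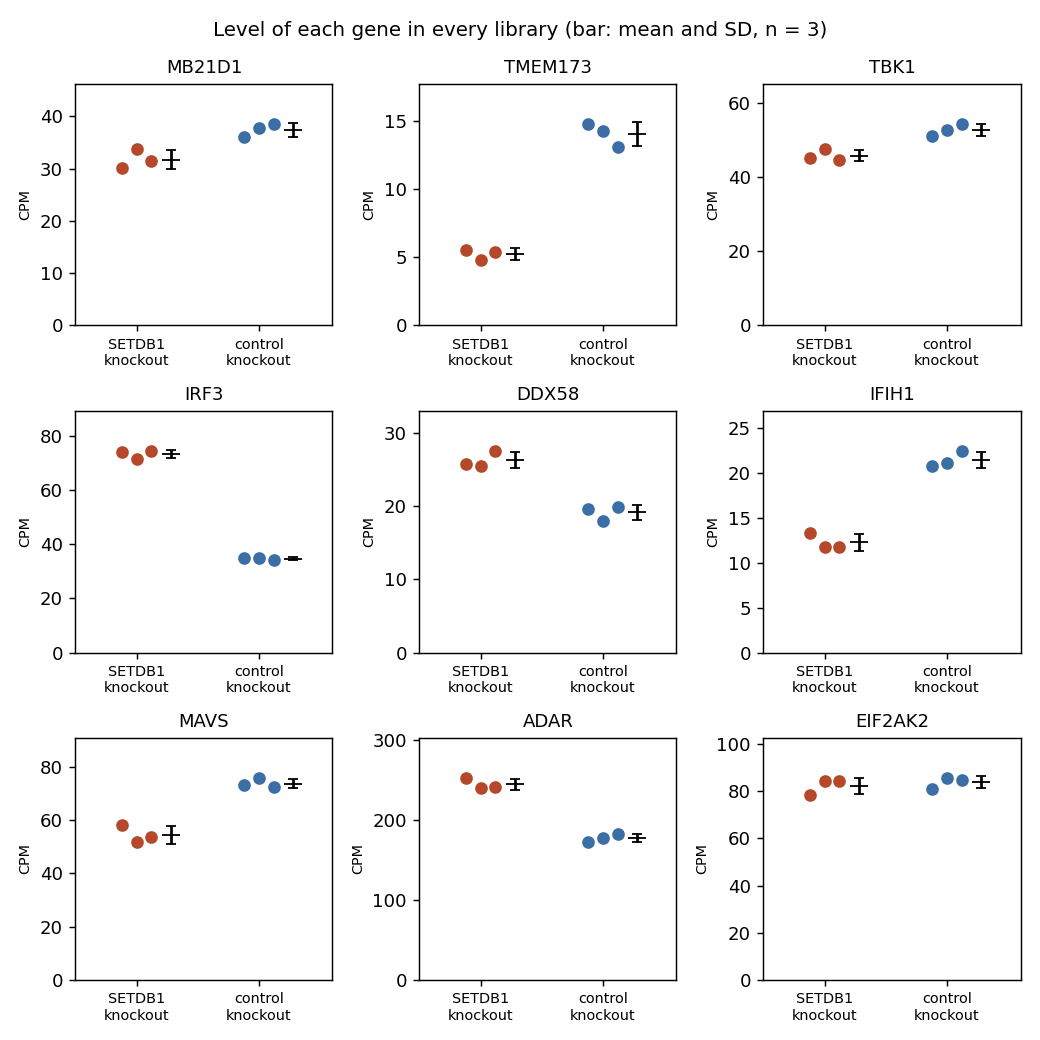
CPM (vertical axes, from 0) of each of the 9 genes in the 3 SETDB1-knockout libraries (left) and the 3 control libraries (right), with the group mean and SD as a black mark. The groups are apart in every panel but that of EIF2AK2, with the largest folds for TMEM173 (mean 5.24 CPM in SETDB1-knockout cells, 14.0 CPM in control cells) and IRF3 (73.3 CPM in SETDB1-knockout cells, 34.6 CPM in control cells).

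MB21D1 (ENSG00000164430, chromosome 6, 73413515 to 73452276, minus strand), which encodes cGAS, the DNA sensor itself, had 30.1, 33.7 and 31.4 CPM with the SETDB1 guide, against 35.97, 37.8 and 38.6 CPM in the control libraries. The groups did not overlap, but the gap between them, 33.7 to 35.97 CPM, was narrow. The level was 31.7 ± 1.83 CPM in SETDB1-knockout cells and 37.4 ± 1.33 CPM in control cells (SD, n = 3 each), and the log2 fold change was -0.24 ± 0.06 (SE; edgeR adjusted p = 0.00172). The 50 expressed genes around MB21D1, 25 on each side, had a median log2 fold change of -0.53, with 43 of them called lower and 1 called higher. With that median taken out, MB21D1 stood at 0.29 ± 0.06 (SE; edgeR adjusted p = 4.07e-04), a value relative to its neighbours. Here and wherever a neighbourhood median is taken out, it was treated as a fixed value. The SE and p therefore leave out the uncertainty of the median itself. Exons of DDX43 on the other strand overlap 4.33% of the exon length of MB21D1, and DDX43 had 1.70 ± 0.288 CPM in SETDB1-knockout cells and 7.70 ± 0.339 CPM in control cells.

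TMEM173 (ENSG00000184584, chromosome 5, 139475534 to 139482935, minus strand) encodes STING, the adaptor that receives the cGAS product. Its reads numbered 166, 165 and 185 in the SETDB1-knockout libraries and 443, 452 and 464 in the control libraries. As levels these were 5.53, 4.77 and 5.41 CPM in SETDB1-knockout cells, against 14.8, 14.3 and 13.1 CPM in control cells. Every SETDB1-knockout library lay well below every control library. The log2 fold change was -1.42 ± 0.09 (SE; edgeR adjusted p = 2.84e-11), a 2.68-fold lower level, and 7.20% of all tested genes had a larger absolute change. No other annotated exon overlaps those of TMEM173. Its surroundings moved the other way, with a median of 0.15 over 50 genes, 25 of them called higher and 10 lower, and with that median taken out the log2 fold change was -1.57 ± 0.09 (SE; edgeR adjusted p = 8.80e-12). Over all 16 alternative settings the value lay between -1.57 and -1.36, and the call held in each.

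TBK1 (ENSG00000183735, chromosome 12, 64451880 to 64502108, plus strand), the kinase shared by both routes, had 45.4, 47.7 and 44.7 CPM in the SETDB1-knockout libraries, against 51.1, 52.9 and 54.5 CPM in the control libraries. The difference was small beside its level, with a log2 fold change of -0.20 ± 0.05 (SE; edgeR adjusted p = 0.00269) and a 95% interval of -0.32 to -0.09. The genes around it had a median of -0.08, and with that taken out the call was lost at -0.12 ± 0.05 (edgeR adjusted p = 0.0620). An antisense gene, AC135279.3, covers 14.7% of the exon length of TBK1, and the labels do not say whether reads were counted by strand.

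IRF3 (ENSG00000126456, chromosome 19, 49659569 to 49665875, minus strand), the transcription factor that TBK1 phosphorylates, had 73.9, 71.5 and 74.4 CPM in the SETDB1-knockout libraries. In the control libraries it had 35.0, 34.9 and 34.0 CPM. These libraries were the tightest of any of the genes, with an SD of 2.12% of the mean in SETDB1-knockout cells and 1.57% in control cells. IRF3 was 2.12-fold higher, a log2 fold change of 1.08 ± 0.05 (SE; edgeR adjusted p = 7.45e-13). Its surroundings rose too: of the 50 expressed genes around it, 47 were called higher and 0 lower, with a median of 0.69. With that median taken out, IRF3 remained higher at 0.39 ± 0.05 (SE; edgeR adjusted p = 2.45e-06). The exons of IRF3 overlap those of BCL2L12, which starts beside it on the other strand, over 19.3% of its exon length. BCL2L12 had 40.5 ± 0.889 CPM in SETDB1-knockout cells and 22.2 ± 0.120 CPM in control cells, a log2 fold change of 0.87 ± 0.06 (SE). Reads from the shared stretch cannot be told apart without strand.

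Both RNA sensors that signal through MAVS had at least 400 reads in every library, and they moved in opposite directions. DDX58 (ENSG00000107201, chromosome 9, 32455705 to 32526324, minus strand), which encodes RIG-I, a sensor of RNA ends that carry a triphosphate, had 25.8, 25.5 and 27.5 CPM in the SETDB1-knockout libraries, against 19.6, 18.04 and 19.9 CPM in the control libraries. All 3 SETDB1-knockout libraries were higher, with a log2 fold change of 0.45 ± 0.06 (SE; edgeR adjusted p = 4.24e-06). The genes around DDX58 had a median of -0.11, and with that taken out the value was 0.56 ± 0.06 (SE).

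IFIH1 (ENSG00000115267, chromosome 2, 162267079 to 162318703, minus strand), which encodes MDA5, a sensor of long double-stranded RNA, had 13.4, 11.7 and 11.7 CPM in the SETDB1-knockout libraries. In the control libraries it had 20.7, 21.1 and 22.4 CPM. The groups were far apart, with a log2 fold change of -0.81 ± 0.07 (SE; edgeR adjusted p = 6.84e-09), a 1.75-fold lower level. Of the 50 genes around IFIH1, 35 were called lower and 4 higher, with a median of -0.57. With that taken out, IFIH1 kept a lower value of -0.24 ± 0.07 (SE; edgeR adjusted p = 0.00715).

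Stretches of the promoters of DDX58, IFIH1 and EIF2AK2 are shown because these 3 hold pairs of the GAAA letters that interferon regulatory factors read, while the genes gave 3 different outcomes (higher, lower and not called). RefSeq promoter windows (GRCh38.p14), which run from 250 bases before to 50 bases after a start site, were matched for 7 of the 10 genes. MB21D1, TMEM173 and IRF3 had no entry. The windows were searched on both strands for the core of the interferon-stimulated response element, written as GAAA, any 2 bases and GAAA again, which 3.57% of 35116 windows of all genes held. A closer pair of GAAA with 1 base between, added after the sequences were seen, occurred in 3.12% of them. Each sequence is written 5′ to 3′ on the strand of the gene, with the match in capitals.
DDX58, chr9:32526351-32526446, minus strand, closer-spaced pair 203 to 195 bases before the start: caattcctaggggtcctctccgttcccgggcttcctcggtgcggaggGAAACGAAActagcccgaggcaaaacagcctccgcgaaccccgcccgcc
IFIH1, chr2:162318656-162318765, minus strand, response element core 21 to 12 bases before the start: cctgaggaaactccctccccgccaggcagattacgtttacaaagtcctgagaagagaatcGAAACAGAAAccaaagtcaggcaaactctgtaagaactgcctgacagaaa
EIF2AK2, chr2:37156951-37157046, minus strand, response element core across the start: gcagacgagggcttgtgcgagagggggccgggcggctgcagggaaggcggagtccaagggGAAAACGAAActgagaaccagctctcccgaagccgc

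The IFIH1 window held 2 further, overlapping matches to the core on the other strand, 159 to 150 and 153 to 144 bases before the start. The windows of TREX1, TBK1, MAVS and ADAR, which has 3 windows, held neither pair. The GC box letters GGGCGG, present in 45% of all windows, occurred in those of DDX58, IFIH1, MAVS, EIF2AK2 and 1 of the 3 of ADAR. A match describes letters in a window and is not a measured binding site.

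MAVS (ENSG00000088888, chromosome 20, 3846799 to 3876123, plus strand), the mitochondrial adaptor of both RNA sensors, had 58.2, 51.7 and 53.6 CPM in the SETDB1-knockout libraries, against 73.1, 75.8 and 72.5 CPM in the control libraries. All SETDB1-knockout libraries were lower, and the log2 fold change was -0.44 ± 0.06 (SE; edgeR adjusted p = 9.18e-07). The 50 genes around MAVS had a median of -0.36, with 37 called lower and 8 higher. With that taken out, the call was lost at -0.08 ± 0.06 (SE; edgeR adjusted p = 0.216).

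ADAR (ENSG00000160710, chromosome 1, 154582057 to 154628013, minus strand), which edits adenosine to inosine in double-stranded RNA, was the most abundant of the genes. It had 251.7, 239.0 and 241.2 CPM in the SETDB1-knockout libraries, against 172.4, 176.8 and 182.2 CPM in the control libraries. Each SETDB1-knockout library exceeded each control library, with a log2 fold change of 0.46 ± 0.05 (SE; edgeR adjusted p = 1.83e-07). The genes around it had a median of 0.22, 35 of 50 being called higher, and with that taken out ADAR stood at 0.24 ± 0.05 (SE; edgeR adjusted p = 4.87e-04). Counts per gene do not separate its constitutive transcript from the interferon-inducible one.

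EIF2AK2 (ENSG00000055332, chromosome 2, 37099210 to 37157065, minus strand), which encodes PKR, had 78.5, 84.2 and 84.4 CPM in the SETDB1-knockout libraries, against 80.9, 85.5 and 84.9 CPM in the control libraries. The groups overlapped. The log2 fold change of -0.02 ± 0.05 (SE) did not pass the test (edgeR adjusted p = 0.701), and its 95% interval of -0.13 to 0.08 excludes a change of the size seen for ADAR or DDX58.

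**Figure D2:**
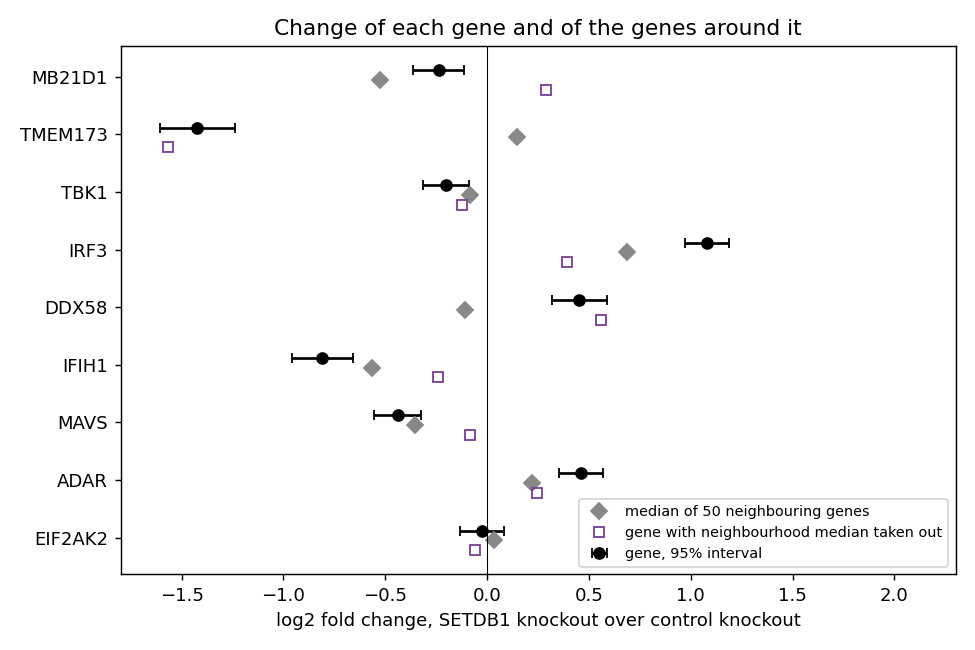
Log2 fold change, SETDB1 knockout over control (horizontal axis), of each gene with its 95% interval (black), the median of the 50 expressed genes around it (grey diamonds) and the gene's value with that median taken out (open squares). Of the called genes, TMEM173 and DDX58 lie on the other side of 0 from their surroundings. EIF2AK2, which was not called, does so near 0 (-0.02 against 0.03). The open square of MB21D1 lies at 0.29, across 0 from its black point.

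Of the 8 called genes, 6 had a neighbourhood median of the same sign as their own change, and TMEM173 and DDX58 had one of the opposite sign. The share of all called genes that have the sign of their surroundings was not counted, so this describes the 8 genes only. With the neighbourhood median taken out of every gene, 4 of the 9 were higher (IRF3, DDX58, MB21D1 and ADAR) and 2 were lower (TMEM173 and IFIH1). In that setting 10026 of all 17675 genes tested were called.

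Levels of different genes were compared per kilobase of merged exon. In SETDB1-knockout cells ADAR was highest at 25.2 ± 0.698 CPM per kb, followed by IRF3 at 19.3 ± 0.409 and TBK1 at 9.64 ± 0.329. EIF2AK2 and MB21D1 came next, at 7.66 ± 0.309 and 7.64 ± 0.441, and their libraries overlapped. DDX58 at 6.04 ± 0.251, MAVS at 4.63 ± 0.283, IFIH1 at 2.40 ± 0.186 and TMEM173 at 1.36 ± 0.107 CPM per kb closed the order, each apart from its neighbour. In control cells the same measure put ADAR first at 18.3 ± 0.506 CPM per kb and TBK1 second at 11.1 ± 0.347. IRF3 at 9.13 ± 0.143 and MB21D1 at 9.01 ± 0.319 overlapped, and EIF2AK2 at 7.79 ± 0.235 and MAVS at 6.27 ± 0.149 followed. DDX58 at 4.41 ± 0.232 and IFIH1 at 4.19 ± 0.174 overlapped, with TMEM173 last at 3.65 ± 0.223 (SD, n = 3 for each value). IRF3 thus stood above TBK1 in SETDB1-knockout cells and below it in control cells, and DDX58 stood above MAVS in SETDB1-knockout cells and below it in control cells. In CPM, IRF3 and TBK1 crossed as well. MAVS stayed above DDX58 in CPM, at 54.5 against 26.3 in SETDB1-knockout cells and 73.8 against 19.2 in control cells. The order of MAVS and DDX58 thus depends on the merged exon length, 11771 bases for MAVS and 4353 for DDX58. So do other places in the order. EIF2AK2 (10753 bases) was below IRF3 and TBK1 per kb in both groups. In CPM it stood above both, at 82.3 in SETDB1-knockout cells and 83.8 in control cells. Per kb, RIG-I transcripts stood above MDA5 transcripts within every library of both groups. Their ranges overlapped over the control libraries (4.14 to 4.58 and 4.06 to 4.39 CPM per kb). Over the SETDB1-knockout libraries the ranges were apart (5.87 to 6.33 and 2.29 to 2.62 CPM per kb). In CPM, IFIH1 stood above DDX58 in every control library (20.7, 21.1 and 22.4 against 19.6, 18.04 and 19.9). It stood below DDX58 in every SETDB1-knockout library. Their order in control cells thus also depends on the merged exon length, 5108 bases for IFIH1.

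**Figure D3:**
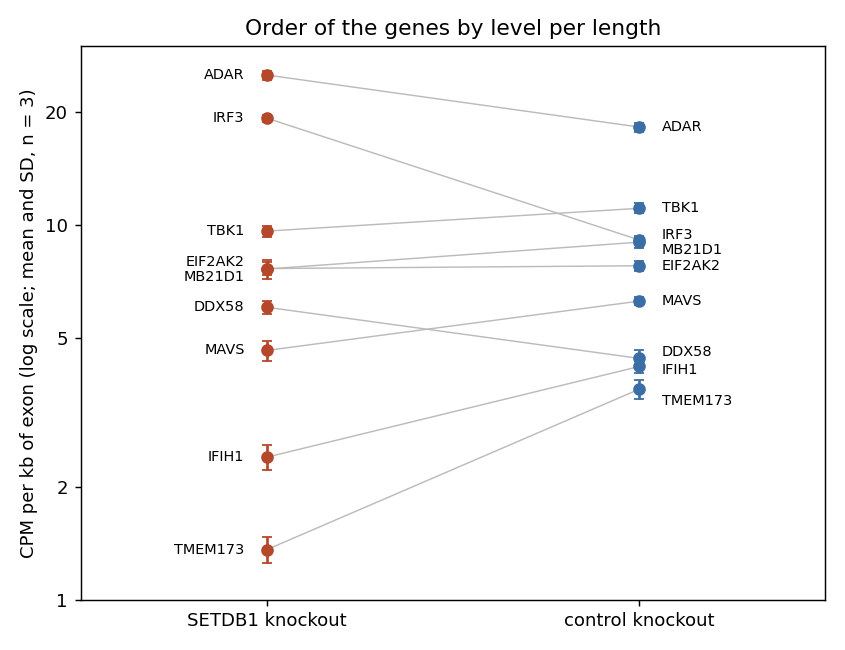
CPM per kb of merged exon on a log axis, mean and SD over the 3 SETDB1-knockout libraries (left) and the 3 control libraries (right), with grey lines joining each gene. The genes span 1.36 to 25.2 CPM per kb in SETDB1-knockout cells and 3.65 to 18.3 CPM per kb in control cells.

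Other pathway genes were described by lists, and listed genes without a row were not analysed here. Of 20 tested genes of DNA sensing and of the nucleases that clear DNA and RNA-DNA hybrids, 7 were higher and 6 lower, with a median log2 fold change of 0.01. These shares, 35% higher and 30% lower, are near the 31.9% and 31.6% of all genes tested. DNASE2, the lysosomal DNase, rose (64.3 ± 3.64 CPM in SETDB1-knockout cells, 42.8 ± 5.45 CPM in control cells), as did RNASEH2A, a subunit of RNase H2 (log2 fold change 0.49 ± 0.06). The DNA sensor gene IFI16 fell (3.68 ± 0.301 CPM in SETDB1-knockout cells, 7.05 ± 0.414 CPM in control cells). SMPDL3A, which encodes an enzyme that degrades cyclic GMP-AMP, fell by 0.68 ± 0.07 on the log2 scale, in surroundings with a median of -0.53, and its call was lost with that taken out (-0.16, edgeR adjusted p = 0.0530). With neighbourhood medians taken out, 2 of these genes rather than 6 were lower and 8 rather than 7 were higher.

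Of 24 genes of STING transport, modification and turnover, 15 were lower and 3 higher, a share of 62.5% lower against 31.6% of all genes tested, with a median of -0.23. SQSTM1, the autophagy receptor p62, fell to 313.1 ± 6.13 CPM in SETDB1-knockout cells, against 559.1 ± 1.23 CPM in control cells. ZDHHC15, a palmitoyltransferase gene, fell by 0.98 ± 0.09 on the log2 scale. RNF5, an E3 ligase that marks STING for degradation, rose by 0.66 ± 0.06, and the folate transporter gene SLC46A1 rose by 0.29 ± 0.09, a call that was lost without control replicate 3 (0.20, edgeR adjusted p = 0.0582). With library size alone as the scaling, 5 members rather than 3 were higher.

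Among 34 other RNA sensing genes, 9 rose and 15 fell, with a median of -0.05. That is 26.5% higher and 44.1% lower, against 31.9% and 31.6% of all genes tested. The helicase gene DHX33 rose (84.2 ± 3.26 CPM in SETDB1-knockout cells, 44.8 ± 1.44 CPM in control cells) in surroundings with a median of 0.77. SKIV2L, a helicase of the cytosolic RNA exosome, rose by 0.70 ± 0.05. The helicase gene DDX60 fell by 0.96 ± 0.11 on the log2 scale.

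Among 21 downstream kinases, adaptors and factors, 13 fell and 4 rose, a share of 61.9% lower against 31.6% of all genes tested, with a median of -0.28. IKBKE, the kinase closest to TBK1, fell to 1.64 ± 0.137 CPM in SETDB1-knockout cells, against 3.57 ± 0.392 CPM in control cells. IRF5 fell by 1.74 ± 0.25 on the log2 scale, at levels of 0.426 ± 0.0468 CPM in SETDB1-knockout cells and 1.42 ± 0.334 CPM in control cells. TBKBP1, an adaptor of TBK1, rose by 0.46 ± 0.06. The number higher was 2 rather than 4 without SETDB1-knockout replicate 2 or 3, or without control replicate 1 or 2.

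Of 11 tested interferons, receptors and signal transducers, 2 were higher and 4 lower, and IFNB1, IFNK and the IFNL genes were not analysed here. The shares were 18.2% higher and 36.4% lower, beside 31.9% and 31.6% of all genes tested. IFNE, an epithelial type I interferon gene, rose to 1.64 ± 0.265 CPM in SETDB1-knockout cells, against 0.707 ± 0.205 CPM in control cells, and the feedback gene SOCS3 rose by 0.27 ± 0.07. IFNLR1, a lambda interferon receptor subunit, fell by 1.47 ± 0.17, and the kinase gene JAK1 fell by 0.66 ± 0.05. Of 8 tested genes that IRF3 is known to induce, 3 were higher and 2 lower (ZC3HAV1, among the 3, is also counted with the RNA sensing genes). With 62.5% called, against 63.5% of all genes tested, these counts do not set the 8 genes apart. IFIT3 and IFIT2 fell by 1.80 ± 0.13 and 1.09 ± 0.15 in surroundings with a median of -0.69. ISG20 rose by 0.45 ± 0.15 and PMAIP1 by 0.36 ± 0.09. The ISG20 call was lost with DESeq2 (0.45, DESeq2 adjusted p = 0.0672), without SETDB1-knockout replicate 3 (0.38, edgeR adjusted p = 0.0732) and without control replicate 3 (0.35, edgeR adjusted p = 0.0792). ISG15 had 12.5 ± 0.797 CPM in SETDB1-knockout cells and 13.4 ± 0.332 CPM in control cells and did not pass the test (edgeR adjusted p = 0.224).

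Around PKR, of 18 other kinases, subunits, phosphatases and targets of translation factor eIF2, 4 rose and 7 fell, with a median of -0.06. The share called, 61.1%, is near the 63.5% of all genes tested, with 22.2% higher and 38.9% lower. EIF2S1, the subunit that PKR phosphorylates, fell to 170.6 ± 5.27 CPM in SETDB1-knockout cells, against 232.5 ± 15.2 CPM in control cells. The phosphatase gene PPP1CB fell by 0.44 ± 0.10, a call that was lost without control replicate 1 (-0.48, edgeR adjusted p = 0.0983) and without control replicate 3 (-0.40, edgeR adjusted p = 0.0825). PPP1CA and EIF2B5 rose by 0.27 ± 0.06 and 0.26 ± 0.05. ATF4, which is translated when eIF2 is phosphorylated, had 190.9 ± 4.42 CPM in SETDB1-knockout cells and 189.9 ± 7.35 CPM in control cells and did not pass the test (edgeR adjusted p = 0.913).

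**Figure D4:**
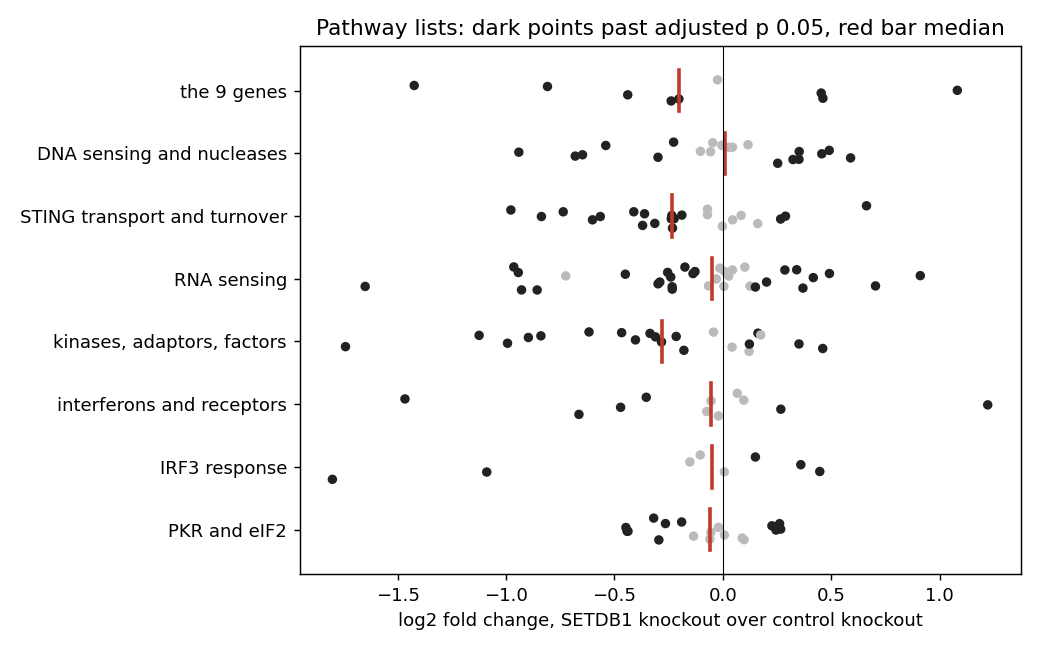
Log2 fold change, SETDB1 knockout over control (horizontal axis), of every tested gene in the 9 described above and in 7 lists of other pathway genes; dark points passed an adjusted p of 0.05 and the red bar is the median. The medians of the lists run from -0.28 (kinases, adaptors and factors) to 0.01 (DNA sensing and nucleases).

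The genes whose pattern over the 6 libraries was closest to that of TMEM173, by Euclidean distance between centred log2 CPM among 14691 genes with a mean of at least 1 CPM, were ANPEP (distance 0.0785), GOLGA8H (0.0868) and DMPK (0.102). ANPEP had 12.8 ± 0.711 CPM in SETDB1-knockout cells and 34.1 ± 2.41 CPM in control cells. Those closest to IRF3 were HGSNAT (0.0683), MYBBP1A (0.0819) and ZNF605 (0.0842), none of them on chromosome 19. All genes share the same libraries, so the distances are a description.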

How the data were processed

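The genes and lists were chosen with earlier results of these data known. Per the labels' protocols, libraries were made from total RNA with an Illumina TruSeq RNA kit. The authors deposited raw read counts per Ensembl gene, 1 column per library; FastQC, TopHat2, HTSeq and the build GRCh38.p7 are named, without versions or settings, in the submitters' processing notes. Every row of the deposited counts reached at least 11 in some library. Identifiers were matched without version to GENCODE 29 (18595 of 18677 rows). Counts were filtered by filterByExpr (17675 rows kept, 1002 removed), scaled by TMM and tested with robust quasi-likelihood fits (R 4.3.3, edgeR 4.0.16) with group as the only term. Merged exon lengths came from GENCODE 29. Neighbours were the 25 nearest expressed genes on each side (log2 CPM above 3), and their median entered the fit as a fixed value.

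Replicates differed by more than counting error (chi-square per degree of freedom 2.28 to 9.83), and none was counted as a copy. Alternatives were scaling by DESeq2 size factors, by library size alone or by the upper quartile, no filter, at least 1 CPM in 3 libraries, DESeq2 1.42.0, limma-voom (limma 3.58.1), glmTreat against a fold of 1.5, a replicate block, the neighbourhood median taken out, and each library left out. The steps were tested on simulated data in which far fewer genes changed than were called here. That test therefore does not cover changes as widespread as these. In each list of other pathway genes, the naming rule took the 3 called genes with the largest change in each direction at 1 CPM or more in the higher group, and the report gives the first 2 of them, except for some that are not reported here; ISG15, ATF4 and genes that overlap the members were named after their values were seen.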

Additional observations from a re-analysis of the deposited data

How the results depend on the processing

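The numbers of members called higher and lower (3 and 5) were the same under 14 of 16 alternatives, among them 3 other scalings, both filters, DESeq2, limma-voom and each library left out. Tested against a fold of 1.5, 1 was higher and 2 were lower, and 3052 rather than 11219 of all genes were called, since that test asks for a larger change. With the neighbourhood median taken out, 4 were higher and 2 lower, MB21D1 changed sign to 0.29, and 10026 of all genes were called. EIF2AK2, which passed no test, stood at 0.0160 with library size alone and 0.00739 with upper-quartile scaling, and with libraries left out it ranged from -0.0520 to 0.00864, the only value above 0 being that without SETDB1-knockout replicate 1. With libraries left out, TMEM173 ranged from -1.48 to -1.36 and IRF3 from 1.06 to 1.09. Of the 14 counts for the other lists, 205 of 224 values stayed within 1.5 times, and 13 of the 19 that did not came from the test against a fold of 1.5. Of 800 values for 50 named genes, 50 lost a call with their sign kept (30 of them in that test) and 6 changed sign, among which were AZI2 (-0.0251, edgeR adjusted p = 0.747) and ZC3HAV1 (-0.10, edgeR adjusted p = 0.0938) with the neighbourhood median taken out, both of which also lost their call. The lost calls given above for single genes of the other lists leave out the test against a fold of 1.5. Replicate numbers showed no clear pairing of the libraries (correlations of same-numbered deviations 0.0878, -0.0628 and 0.0248). Correlations between libraries with different numbers ran from -0.133 to 0.123. With 3 libraries per group, a pairing is not excluded by these values. The fit with the replicate block called 11703 genes, with 3 members higher and 5 lower. Reads per member and library ranged from 165 to 8271. Each group had 3 libraries from 1 guide, which limits what the p-values cover.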
